A study of Mus musculus with 8 samples.

Results

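Metallothioneins, thioredoxin and ferritin are proteins that bind metals or carry electrons. From these and linked pathways, 9 genes were followed in lung group 2 innate lymphoid cells (ILC2s): *Mt1*, *Mt2*, *Txn1*, *Txnrd1*, *Prdx1*, *Gclm*, *Hmox1*, *Fth1* and *Ftl1*. The genes were taken by name, 9 of 55413 genes in the bulk table and 9 of 15083 in the single-cell table, and all 9 were present in both. They were chosen by name with the levels and fold changes of these same tables in view, so the values below describe them, and no test here is independent of that choice.

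ILC2s are lymphocytes without antigen receptors that answer the epithelial alarmin IL-33 with type 2 cytokines, and the study asked what dopamine given through the nose does to them. All mice were wild type C57BL/6. In the bulk experiment, female mice had intranasal IL-33 for 3 days, with dopamine for 3 libraries and with the PBS vehicle for 3, called dopamine and vehicle libraries below. Each was a full-length Smart-Seq2 library from 2000 sorted cells. The single-cell experiment was 1 droplet pool from male mice, split by antibody hashtags into IL-33 plus dopamine (hashtags 6, 7 and 8), IL-33 (hashtags 3, 4 and 5) and PBS (hashtags 1 and 2, for which the cell table names no IL-33). Ages are not given in the labels, and no label ties a hashtag to 1 mouse, so the spread between hashtags may be partly technical.

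Metallothioneins hold zinc and copper ions in clusters of cysteine thiols, and their genes are switched on by metals through the zinc sensor MTF1, and also by glucocorticoids and oxidative stress. Thioredoxin reduces disulfides in other proteins, thioredoxin reductase recharges it with electrons from NADPH, and peroxiredoxins use it to remove peroxides. Glutathione forms the parallel thiol system. Ferritin, a shell of heavy and light chains, stores the iron that haem oxygenase and the endosomes release, and its translation is held back by iron regulatory proteins when iron is scarce. Several of these genes are textbook targets of the transcription factor NRF2.

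In the bulk table, which lists TPM (a level corrected for transcript length and scaled to a library total of 1000000), the 9 genes held 0.761% ± 0.0576 of all TPM in dopamine libraries and 0.722% ± 0.0320 in vehicle libraries (SD, n = 3 each). The files give no read counts for these libraries, so their depth is unknown. TPM of at least 1 was reached by 11502 to 11745 genes in dopamine libraries and by 9822 to 11384 in vehicle libraries, with the fewest in vehicle library 2. The median of the 11222 tested genes was 0.49 higher in dopamine libraries on the log2(TPM + 1) scale, and 0.05 higher after median-of-ratios scaling. Bulk changes are therefore also given relative to that median, and each SE and adjusted p belongs to the fitted change, not to the relative one, which was not tested. The single-cell table held 9076 cells with no repeated barcode and 1397576 to 9268932 unique molecular identifiers (UMIs) per hashtag. All 11 ILC2 marker genes reached 1 TPM in every bulk library. Macrophage and monocyte markers summed to 22.7 to 560 TPM in dopamine libraries and 40.8 to 1427 TPM in vehicle libraries, with *C1qa* and *C1qc* at 0 in all 6. Their most uneven members were *Lyz2*, at 390 TPM in dopamine library 2, and *Chil3*, at 1221 TPM in vehicle library 1. In the single cells 7 of these 15 markers were in the table, and they summed to 3.00 to 10.0 CPM (UMIs scaled to a hashtag total of 1000000). Some other marker lists stood apart between the bulk groups. NK cell and ILC1 markers summed to 457 to 930 TPM in dopamine libraries and to 60.4 to 410 TPM in vehicle libraries, and T cell markers to 1708 to 2192 TPM in dopamine libraries and 1157 to 1690 TPM in vehicle libraries. Lung epithelium markers summed to 27.2 to 30.2 TPM in dopamine libraries and 11.4 to 16.4 TPM in vehicle libraries, and endothelium and fibroblast markers to 24.7 to 29.8 TPM in dopamine libraries and 7.33 to 22.1 TPM in vehicle libraries. B cell markers overlapped, at 119.9 to 1788 TPM in dopamine libraries and 87.3 to 5005 TPM in vehicle libraries. The part of these cells in the members' values was not tested.

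None of the 9 genes passed the test in any of the 3 comparisons. In the bulk libraries limma gave 0 of 9 at an adjusted p under 0.05, with 3 at an unadjusted p under 0.05, beside 4 of all 11222 tested genes (0.0356%) and 24.1% at an unadjusted p under 0.05. As fitted, 6 of the 9 changes lay below 0 and 3 above, with a median of -0.33 (log2). Relative to the median gene, 8 of the 9 lay below and 1 above, with a median of -0.83. In *Mt2*, *Txn1*, *Prdx1* and *Ftl1* every dopamine library was below every vehicle library, as in 6.57% of all tested genes. In *Fth1* alone every dopamine library was above, as in 23.5% of all tested genes. In the single cells 7 of the 9 passed the filter on low counts, all but *Mt2* and *Hmox1*. For IL-33 plus dopamine against IL-33, edgeR gave 0 of the 7 (1 at an unadjusted p under 0.05), beside 3 of 10559 genes (0.0284%) and 9.47% at an unadjusted p under 0.05. In none of the 7 did these groups stand apart, beside 7.81% of all tested genes higher and 6.93% lower in every IL-33 plus dopamine hashtag. For IL-33 against PBS it gave 0 of the 7 (2 at an unadjusted p under 0.05), beside 74 of 10506 genes (0.704%) and 13.4% at an unadjusted p under 0.05. DESeq2 also gave 0 in both, beside 0.246% of all tested genes for dopamine and 1.13% for IL-33. The single-cell comparisons share the IL-33 hashtags.

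**Figure D1:**
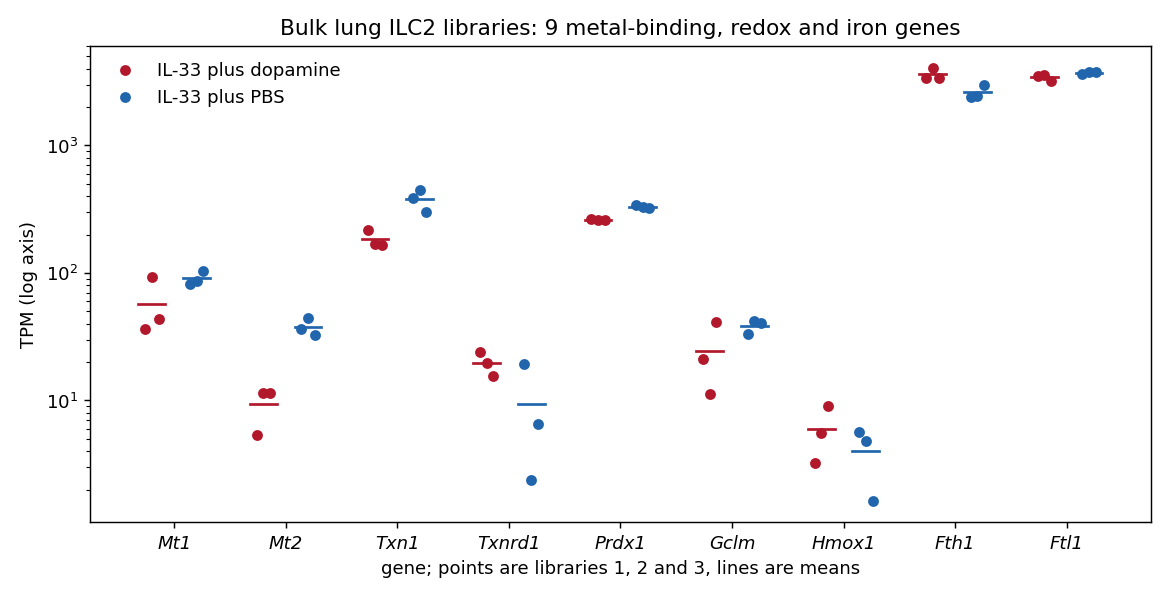
TPM of the 9 genes in each bulk library on a log axis, with 3 dopamine libraries (red, left) and 3 vehicle libraries (blue, right) per gene and lines at the means. *Mt2* is separated most widely, with 5.35 to 11.4 TPM in dopamine libraries and 32.8 to 44.6 TPM in vehicle libraries.

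The metallothionein genes *Mt1* and *Mt2* had lower means in dopamine libraries, and the groups were apart in *Mt2* only. *Mt2* had 5.35, 11.4 and 11.4 TPM in dopamine libraries, against 36.7, 44.6 and 32.8 TPM in vehicle libraries. The groups did not overlap, and the means differed 4.04-fold, the widest gap among the 9 genes. Its log2 fold change was -1.96 ± 0.42 (SE), with a limma adjusted p of 0.0832, and -2.46 relative to the median gene. *Mt1* had 36.0, 92.8 and 43.5 TPM in dopamine libraries, against 81.7, 86.4 and 104 TPM in vehicle libraries. Dopamine libraries 1 and 3 were below all vehicle libraries, but dopamine library 2, the library with the 390 TPM of *Lyz2*, lay among them. The log2 fold change of *Mt1* was -0.77 ± 0.36 with an adjusted p of 0.225, and -1.26 relative to the median gene. The part of macrophage RNA in these values was not tested, and in bulk samples fewer cells of a kind and less RNA per cell cannot be told apart. Without vehicle library 1 the limma adjusted p of *Mt2* was 0.0321, in a fit where 1536 of all 10733 tested genes passed. With any other library left out it was 0.104 to 0.242.

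*Mt2* was also lower in relation to its neighbour *Mt1*. The TPM of *Mt2* over that of *Mt1*, a ratio that no scaling of a library moves, was 0.148, 0.123 and 0.263 in dopamine libraries and 0.449, 0.516 and 0.315 in vehicle libraries. The groups did not overlap, at an exact two-sided permutation p of 0.1, the smallest that 3 against 3 libraries can give. The share of other gene pairs whose ratio separates the groups was not counted.

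The genes are neighbours on chromosome 8 on the forward strand (*Mt2* at chr8:94172664-94173568 and *Mt1* at chr8:94179082-94180327, GRCm38, GENCODE M21), 5513 bases apart. Their upstream regions are shown because metal-responsive elements there are the textbook control sites of the family. They were read from RefSeq promoter windows (GRCm38.p6) that run from 250 bases before to 50 after the annotated start, which 8 of the 9 genes had. The metal-responsive core was searched as TGCACNC and TGCGCNC, and the antioxidant-responsive core as TGACNNNGC, on both strands. Capitals mark the matches. *Mt2* (chr8:94172368-94172617, + strand):
Mt2: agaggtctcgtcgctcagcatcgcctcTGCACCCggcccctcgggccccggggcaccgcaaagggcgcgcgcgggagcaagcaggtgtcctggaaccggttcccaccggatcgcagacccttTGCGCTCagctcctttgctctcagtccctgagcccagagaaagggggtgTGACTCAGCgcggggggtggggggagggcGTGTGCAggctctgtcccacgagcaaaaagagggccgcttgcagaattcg
and *Mt1* (chr8:94178839-94179081, + strand):
Mt1: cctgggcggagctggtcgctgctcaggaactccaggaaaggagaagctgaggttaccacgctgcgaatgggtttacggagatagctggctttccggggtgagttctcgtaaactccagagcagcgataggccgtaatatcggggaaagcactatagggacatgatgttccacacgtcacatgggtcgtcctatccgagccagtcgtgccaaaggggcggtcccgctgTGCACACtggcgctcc
The whole *Mt2* window held 4 metal-responsive cores, starting at -223, -128, -50 and 5 from the start, and 1 antioxidant core at -79. At least 4 metal-responsive cores were found in 0.517% of 32851 RefSeq windows of the same length. The *Mt1* window held 3 metal-responsive cores, at -23, 3 and 21, and no antioxidant core. At least 2 metal-responsive cores were found in 7.11% of windows, and the share with at least 3 was not counted. A single metal-responsive core or more was found in 25.7% of windows. The matches are letters in a window and not measured sites of binding.

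In the single cells the metallothioneins were rare and lay in few cells. *Mt1* had 82, 53 and 10 UMIs in IL-33 plus dopamine hashtags, against 79, 36 and 32 in IL-33 hashtags, and 3 and 20 in PBS hashtags. The groups overlapped, and the log2 fold change of IL-33 plus dopamine over IL-33 was 0.22, with a 95% interval of -0.71 to 1.15. *Mt2* had 8, 20 and 2 UMIs in IL-33 plus dopamine hashtags, against 9, 1 and 3 in IL-33 hashtags. It had 0 UMIs in both PBS hashtags, which allows a level of up to 2.15 CPM in hashtag 1 and 0.893 CPM in hashtag 2, so *Mt2* cannot be compared between IL-33 and PBS at this depth. These limits and all binomial intervals cover counting error only.

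*Mt1* UMIs were concentrated in a handful of cells rather than spread thinly. Of 9076 cells, 112 held any *Mt1* UMI (1.23%, exact binomial 95% interval 1.02 to 1.48%), and 76 of these held 1. The 13 cells with at least 5 *Mt1* UMIs held 182 of the 315 in the table, or 57.8%, and the top cell held 36. For scale, *Lyz2*, a macrophage gene that ILC2s should lack, had a UMI in 0.253% of cells. These 13 cells numbered 8 in IL-33 plus dopamine (104 *Mt1* UMIs), 3 in IL-33 (66 UMIs) and 2 in PBS (12 UMIs). They came from 5 hashtags and all 6 of the authors' clusters. By hashtag they were 4, 4 and 0 of 1252, 1197 and 1475 cells in IL-33 plus dopamine. They were 2, 1 and 0 of 1485, 1092 and 1516 cells in IL-33, and 0 and 2 of 311 and 748 cells in PBS. The groups hold unlike numbers of cells, so no order of the groups is read from these counts. All 13 held UMIs of *Il1rl1*, the IL-33 receptor, 12 held *Gata3*, the ILC2 lineage factor, and 0 held a UMI of the macrophage list. Of all 9076 cells, 92.2% held *Il1rl1* and 89.7% held *Gata3*, so these counts do not set the 13 cells apart from the rest. Their totals ran from 3471 to 12588 UMIs. *Mt2* was found in 16 cells, of which 5 also held *Mt1*. Without the 13 cells *Mt1* stood at 3.00, 1.60 and 1.54 CPM in IL-33 plus dopamine hashtags, against 3.88, 2.23 and 3.72 CPM in IL-33 hashtags, and 2.15 and 2.38 CPM in PBS hashtags. The fitted change for dopamine was then -0.71 (adjusted p = 0.521), opposite in sign to the value with all cells.

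**Figure D2:**
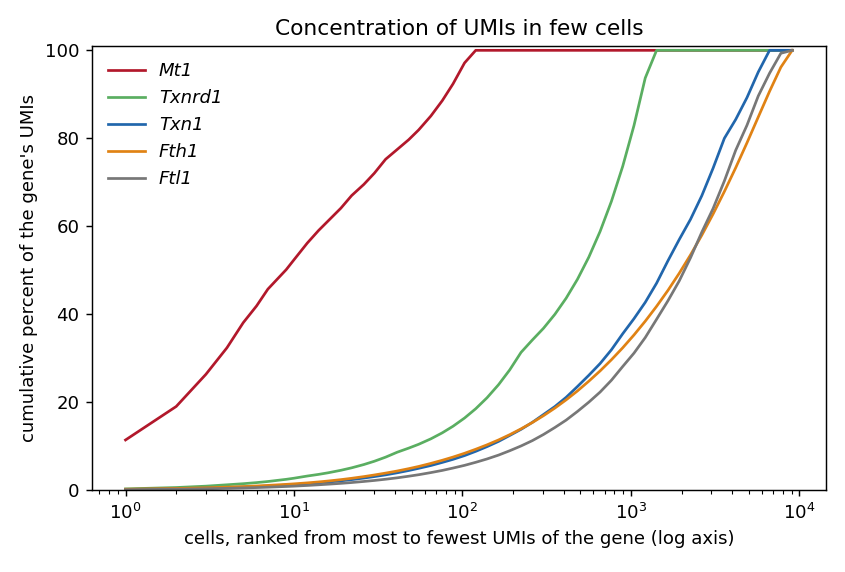
Cumulative percent of a gene's UMIs (vertical axis) against the number of cells ranked from most to fewest UMIs of that gene (log axis), for 9076 cells. The 91 cells richest in each gene, 1 in 100 of all, held 93.3% of *Mt1* UMIs but 7.72% of *Fth1* and 5.17% of *Ftl1* UMIs. This share depends on abundance, since only 112 cells held any *Mt1*. A rare gene scores high however its UMIs are spread, as *Hmox1* (not drawn) did at 100%, with 14 UMIs in 13 cells.

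In the thioredoxin system, *Txn1* had a lower mean and its reductase *Txnrd1* a higher mean in dopamine libraries. *Txn1* (thioredoxin) had 218, 168 and 166 TPM in dopamine libraries, against 385, 446 and 301 TPM in vehicle libraries. The groups did not overlap and the means differed 2.05-fold. The log2 fold change was -1.03 ± 0.22 (SE), with a limma adjusted p of 0.0832, and -1.52 relative to the median gene. Without vehicle library 1 the adjusted p was 0.0386, in the same fit where 1536 of all 10733 tested genes passed. With any other library left out it was 0.0644 to 0.242. *Txnrd1* (cytosolic thioredoxin reductase) had 23.8, 19.7 and 15.7 TPM in dopamine libraries, against 19.4, 2.37 and 6.49 TPM in vehicle libraries. The vehicle libraries spread more than the dopamine ones and overlapped them. Its log2 fold change was 1.35 ± 0.63 with an adjusted p of 0.218. Relative to the median gene it was 0.86, and this ran from 0.41 to 1.36 when single libraries were left out. *Prdx1* (a peroxidase that thioredoxin recharges) had 267, 260 and 260 TPM in dopamine libraries, against 343, 329 and 321 TPM in vehicle libraries. The libraries of each group lay close together and apart from the other group, and the log2 fold change was -0.33 ± 0.18 with an adjusted p of 0.262, or -0.83 relative to the median gene.

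The balance of *Txnrd1* to *Txn1* was higher with dopamine in both experiments. In TPM it was 0.109, 0.118 and 0.0946 in dopamine libraries and 0.0504, 0.00531 and 0.0216 in vehicle libraries. In UMIs it was 0.139, 0.129 and 0.116 in IL-33 plus dopamine hashtags and 0.106, 0.0967 and 0.102 in IL-33 hashtags. The groups did not overlap in either experiment, with exact two-sided permutation p of 0.1 in each, the smallest possible. The ratio was 0.140 and 0.126 in PBS hashtags, which the IL-33 hashtags lay below, also at the smallest possible exact permutation p of 0.1. This comparison uses the same IL-33 hashtags, so it is not independent of the one for dopamine. How often the ratios of other gene pairs separate these groups was not counted. A UMI ratio carries no correction for length, so the bulk and single-cell ratios are not compared with each other.

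At single-cell level *Txn1* had 240, 314 and 244 CPM in IL-33 plus dopamine hashtags, against 339, 282 and 321 CPM in IL-33 hashtags, and 230 and 255 CPM in PBS hashtags. Hashtags 6 and 8 lay below every IL-33 hashtag, while hashtag 7 lay among them. The log2 fold change of IL-33 plus dopamine over IL-33 was -0.24 ± 0.11 (SE), with a 95% interval of -0.45 to -0.02 and an edgeR adjusted p of 0.526. That of IL-33 over PBS was 0.33 ± 0.10, with an adjusted p of 0.136. All 3 IL-33 hashtags were above both PBS hashtags, as in 20.9% of all tested genes. With every gene tested and no filter on low counts, the edgeR adjusted p for IL-33 over PBS was 0.0127, beside 322 of all 15034 genes that passed. Without hashtag 4 it was 0.0492, beside 124 of all 10386. It was 0.366 without hashtag 3, 0.216 without hashtag 5 and 0.348 with all 8 hashtags in 1 fit. With cells between the 10th and 90th percentile of UMIs it was 0.523, and DESeq2 gave 0.0986.

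The share of cells in cluster 5, where *Txn1* was highest, moved with these values. Cluster 5 held 6.71%, 14.2% and 1.76% of the cells in IL-33 plus dopamine hashtags, against 22.0%, 8.88% and 11.7% in IL-33 hashtags, and 2.57% and 3.07% in PBS hashtags. Within clusters the dopamine change of *Txn1* was below 0 in 6 of 6, running from -0.26 in cluster 5 to -0.02 in cluster 4. The mean over the clusters was -0.12, against -0.24 with all cells together. For IL-33 over PBS the mean over the 5 clusters that could be fitted was 0.12, against 0.33 with all cells together. Cluster 5 could not be fitted there, as hashtag 1 held 8 of its cells. The 0.12 thus leaves out the cluster where *Txn1* was highest, while the 0.33 includes it. Over the 36 fits of a member within a cluster for dopamine, 0 passed edgeR's test and 1 had an unadjusted p under 0.05 (*Txn1* in cluster 5). Over the 31 such fits for IL-33 against PBS, 0 passed and 2 had one (*Fth1* in clusters 2 and 3). Of all genes tested for dopamine, 0.0388% passed in cluster 0, 0.075% in cluster 1, 0 in clusters 2 and 3, 0.0548% in cluster 4 and 0.266% in cluster 5. For IL-33 against PBS 0.095% passed in cluster 0, 0.286% in cluster 1, 0.0753% in cluster 2, 0.0698% in cluster 3 and 0.138% in cluster 4.

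*Txnrd1* and *Prdx1* differed little between hashtag groups. *Txnrd1* had 33.3, 40.6 and 28.2 CPM in IL-33 plus dopamine hashtags, against 35.8, 27.3 and 32.6 CPM in IL-33 hashtags, and 32.2 CPM in each PBS hashtag. *Prdx1* had 135, 145 and 142 CPM in IL-33 plus dopamine hashtags, against 140, 135 and 151 CPM in IL-33 hashtags, and 141 and 160 CPM in PBS hashtags. The 95% interval of the dopamine change was -0.18 to 0.35 for *Txnrd1* and -0.17 to 0.14 for *Prdx1*.

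**Figure D3:**
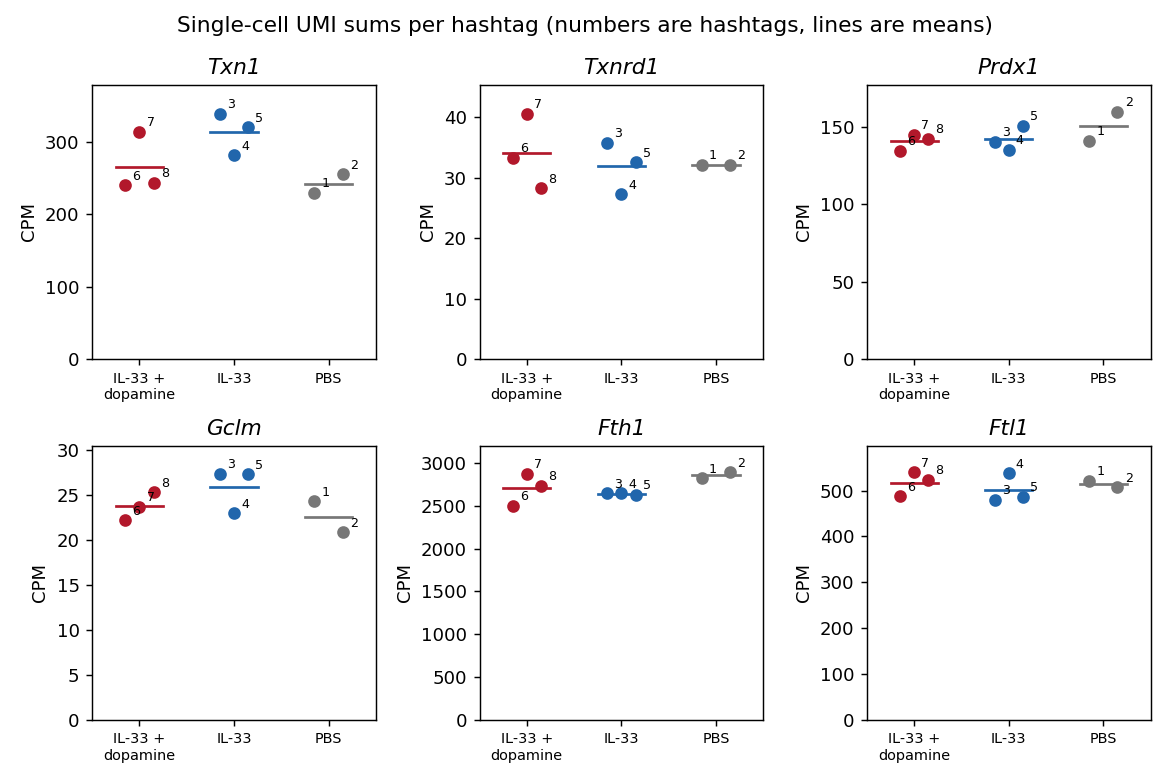
Level in CPM of 6 genes in each hashtag, with IL-33 plus dopamine (red), IL-33 (blue) and PBS (grey), numbers naming the hashtags and lines at the means. *Txn1* is lower in hashtags 6 and 8 than in the IL-33 hashtags, while the groups overlap in *Txnrd1*, *Prdx1*, *Gclm* and *Ftl1*.

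*Gclm* and *Hmox1*, the glutathione and haem members, overlapped between the bulk groups. *Gclm* encodes the modifier subunit of the enzyme that limits glutathione synthesis. It had 21.3, 11.3 and 41.2 TPM in dopamine libraries, against 33.3, 42.3 and 40.3 TPM in vehicle libraries. Dopamine library 3 lay within the vehicle range, and the log2 fold change was -0.80 ± 0.46 with an adjusted p of 0.290, or -1.29 relative to the median gene. By hashtag the dopamine change of *Gclm* was -0.13, with a 95% interval of -0.36 to 0.09. *Hmox1* encodes the inducible haem oxygenase, which frees iron from haem. It had 3.23, 5.52 and 9.09 TPM in dopamine libraries, against 5.67, 4.81 and 1.64 TPM in vehicle libraries, a low level at which the groups overlapped. Its log2 fold change was 0.48 ± 0.59 with an adjusted p of 0.619, and the relative value of -0.01 turned positive in 6 of the other settings and left-out libraries. In the single cells *Hmox1* had 14 UMIs in 13 of 9076 cells (0.143%, exact binomial 95% interval 0.0763 to 0.245%), under the 0.253% of cells with *Lyz2*, and they lay as 1, 1 and 1 UMI in IL-33 plus dopamine hashtags, against 3, 1 and 5 in IL-33 hashtags, and 2 and 0 in PBS hashtags. In CPM every IL-33 plus dopamine hashtag was below every IL-33 hashtag, but on 3 against 9 UMIs, and hashtag 4 of the IL-33 group also held 1, so no difference is read from it at this depth.

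Antioxidant-responsive cores, the sites NRF2 binds with small MAF partners, were found in the windows of 4 of the 8 genes, *Mt2*, *Txnrd1*, *Prdx1* and *Gclm*. They are shown because *Txnrd1* and *Prdx1*, which share the core, lay on opposite sides of the median gene in the bulk libraries. Each 30-base stretch is written on the strand on which the core reads TGACNNNGC (GRCm38.p6, RefSeq), with the core in capitals: *Mt2* (chr8:94172529-94172558, + strand), *Txnrd1* (chr10:82859103-82859132, - strand), *Prdx1* (chr4:116685455-116685484, - strand) and *Gclm* (chr3:122245412-122245441, - strand).
Mt2: aaagggggtgTGACTCAGCgcggggggtgg
Txnrd1: cgtgtcagaaTGACAAAGCaaaaatccagt
Prdx1: ctacgggggaTGACTCAGCgctttccctgg
Gclm: tcgtgagagtTGACGGTGCgcccgggagcg
They start 79, 92, 133 and 134 bases before the annotated start, in the order listed. That of *Txnrd1* precedes a start inside the annotated gene, and that of *Gclm* overlaps 1 of its 3 metal-responsive cores. At least 1 such core was found in 12.4% of all 32851 windows. No core of either kind was found in the windows of *Txn1*, *Fth1* and *Ftl1*, which says only that these letters are not in those windows. Of the 9 genes, *Hmox1* had no window.

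Ferritin was the most abundant product of the 9 genes, and its chains stood in another ratio in dopamine libraries. *Fth1* (heavy chain, which oxidises iron) had 3400 TPM in dopamine library 1, 4083 in library 2 and 3369 in library 3, against 2397, 2449 and 2969 TPM in vehicle libraries. All dopamine libraries were above all vehicle libraries, and the means differed 1.39-fold. The log2 fold change was 0.47 ± 0.14 (SE) as deposited with an adjusted p of 0.104, but -0.02 relative to the median gene, and that relative value turned positive in 7 of the other settings and left-out libraries. *Ftl1* (light chain, which aids formation of the iron core) had 3488, 3593 and 3207 TPM in dopamine libraries, against 3629, 3748 and 3786 TPM in vehicle libraries. All dopamine libraries were below all vehicle libraries by a narrow margin, and the log2 fold change was -0.12 ± 0.11 with an adjusted p of 0.498. Relative to the median gene it was -0.61, which quantile normalisation turned to 0.06. The TPM of *Fth1* over that of *Ftl1* was 0.975, 1.14 and 1.05 in dopamine libraries and 0.661, 0.653 and 0.784 in vehicle libraries. The ratio did not overlap between groups, at the smallest possible exact permutation p of 0.1, and the share of other gene pairs that do the same was not counted. Both genes have processed pseudogene copies in the table that could share their reads. Of these, *Ftl1-ps1* was listed at 17.1, 29.8 and 22.4 TPM in dopamine libraries and at 41.4, 49.2 and 55.4 TPM in vehicle libraries, so the levels of both chains are uncertain by reads assigned to copies.

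The single-cell values of the ferritin chains did not show the shift seen in bulk. *Fth1* over *Ftl1* in UMIs was 5.13, 5.32 and 5.22 in IL-33 plus dopamine hashtags, against 5.51, 4.92 and 5.40 in IL-33 hashtags, and 5.41 and 5.69 in PBS hashtags. The exact permutation p was 0.9 for dopamine and 0.5 for IL-33 against PBS. *Fth1* itself had 2500.2, 2875 and 2733 CPM in IL-33 plus dopamine hashtags, against 2647, 2648 and 2631 CPM in IL-33 hashtags, and 2824 and 2891 CPM in PBS hashtags. The IL-33 hashtags lay close together and below both PBS hashtags, as in 13.6% of all tested genes. The log2 fold change of IL-33 over PBS was -0.15 ± 0.05 (SE) with an edgeR adjusted p of 0.187. The mean over 5 clusters, which leaves out cluster 5, was -0.07. The dopamine change was 0.04 for *Fth1* (95% interval -0.09 to 0.16) and 0.05 for *Ftl1* (-0.10 to 0.20).

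The iron-responsive elements of the ferritin transcripts are shown because they are the means by which both chains are held under 1 control after transcription, which RNA levels do not report. They were found in GENCODE M21 transcripts before the start codon, with the conserved loop in capitals, for *Ftl1* at chr7:45459780-45459809 (GRCm38, - strand, exon 1 of Ftl1-201) and for *Fth1* at chr19:9982730-9982759 (+ strand, exon 1 of Fth1-201).
Ftl1: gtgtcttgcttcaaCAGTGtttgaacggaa
Fth1: gtttcctgcttcaaCAGTGcttgaacggaa

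**Figure D4:**
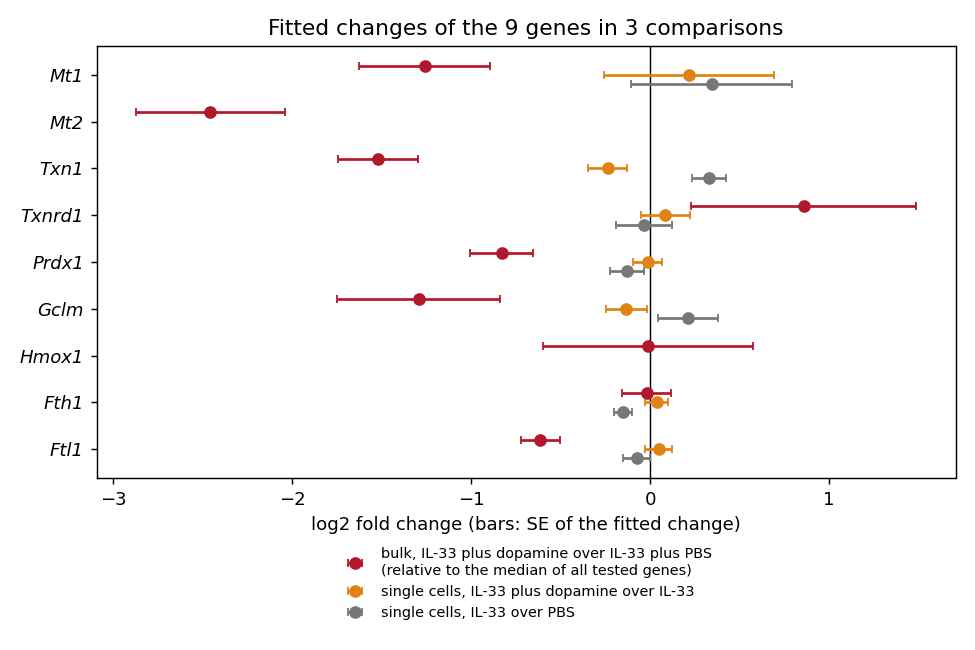
Log2 fold changes (horizontal axis, bars the SE of the fitted change) of the 9 genes in the bulk libraries (red, shifted to be relative to the median tested gene), for IL-33 plus dopamine over IL-33 (orange) and for IL-33 over PBS (grey). Bulk values reach -2.46 in *Mt2*, while the single-cell values of all genes but *Mt1* lie between -0.24 and 0.33, and *Mt2* and *Hmox1* have no single-cell fit.

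Across the authors' 6 clusters, *Fth1* varied most clearly. The clusters were built from these cells' own expression, so their levels are a description with no test. *Fth1* averaged 4407 ± 477 CPM in cluster 3 (SD over 8 hashtags), 3087 ± 347 in cluster 5 (7 hashtags with at least 20 cells), 2651 ± 136 in cluster 2, 2314 ± 195 in cluster 1, 2180 ± 123 in cluster 0 and 2005 ± 180 in cluster 4. Cluster 3 was the highest in 7 of the 7 hashtags that held all clusters, and its lowest hashtag (3938 CPM) exceeded the highest of cluster 5 (3749 CPM), while every other pair of neighbours in that order overlapped. In cluster 3, *Fth1* had 3938, 4346 and 4000.4 CPM in IL-33 plus dopamine hashtags, against 4736, 4086 and 4034 CPM in IL-33 hashtags, and 4986 and 5127 CPM in PBS hashtags. The PBS hashtags stood above all others there, and the log2 fold change of IL-33 over PBS within cluster 3 was -0.24 (unadjusted p = 0.00258, edgeR adjusted p = 0.331). Cluster 3 held 11.4%, 17.0% and 20.1% of cells in IL-33 plus dopamine hashtags, against 7.74%, 10.1% and 11.9% in IL-33 hashtags, and 20.6% and 11.4% in PBS hashtags. The cell richest in *Fth1* held 310 of its UMIs among 5213, where the median cell held 11. It belonged to hashtag 1 and cluster 3 and carried 11 UMIs of *Gata3*, 8 of *Il1rl1* and 0 of the macrophage list.

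*Txn1* and *Txnrd1* had other orders. *Txn1* averaged 391 ± 62.9 CPM in cluster 5 and 334 ± 45.0 in cluster 1, its top pair in 7 of 7 hashtags, and 259 ± 28.6 CPM or less in the other clusters, with 225 ± 17.8 in cluster 2 as the lowest. *Txnrd1* averaged 52.0 ± 9.78 CPM in cluster 3 and 47.3 ± 11.02 in cluster 5, its top pair in 6 of 7 hashtags, and 23.2 ± 6.52 in cluster 0 and 21.9 ± 9.76 in cluster 1. The cluster 1 mean includes hashtag 1, with 26 cells and 0 *Txnrd1* UMIs, and with the cells of all hashtags pooled cluster 1 stood at 25.8 CPM and cluster 0 at 23.1 CPM. All neighbours in both orders overlapped. *Prdx1*, *Gclm* and *Ftl1* were more even, with the highest cluster over the lowest at 1.24-fold, 1.53-fold and 1.14-fold in that order, against 2.20-fold for *Fth1* and 1.74-fold for *Txn1*. *Ftl1* was highest in cluster 4 (564 ± 32.0 CPM), the cluster in which *Fth1* was lowest. The *Mt1*, *Mt2* and *Hmox1* counts per cluster were too few for an order, and all their neighbouring clusters overlapped.

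**Figure D5:**
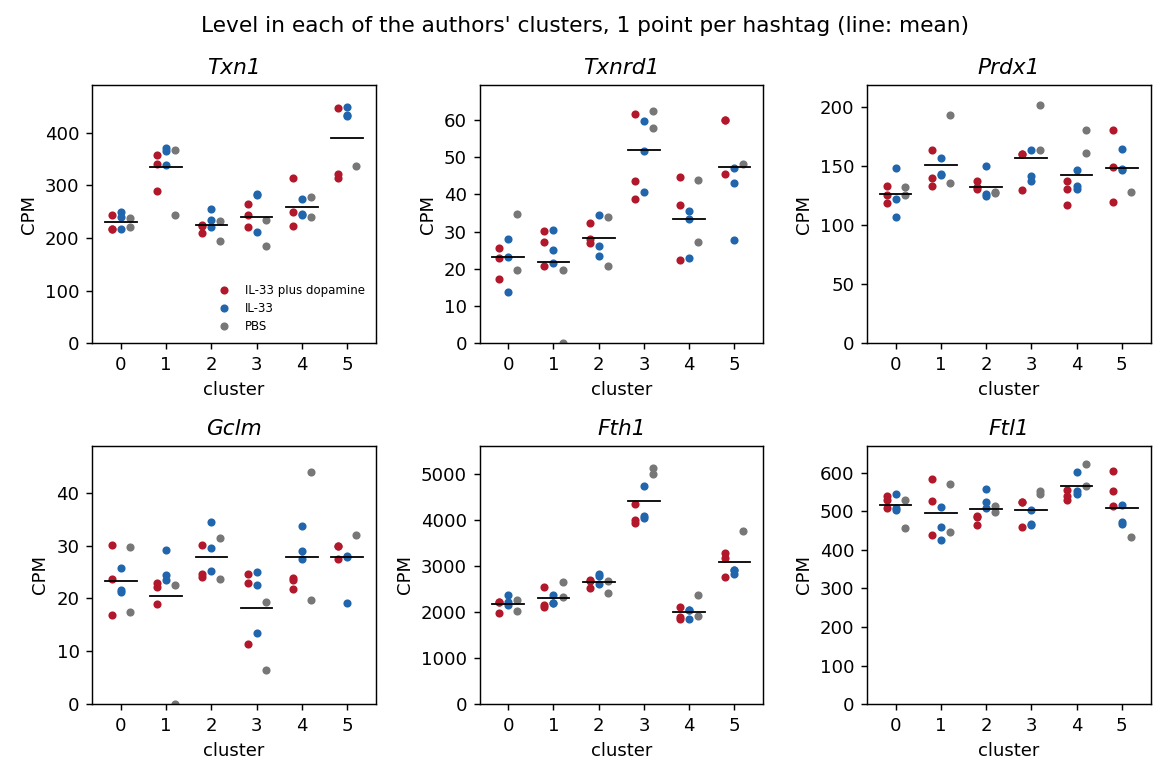
Level in CPM of 6 genes in each of the authors' clusters 0 to 5, 1 point per hashtag with at least 20 cells of the cluster (IL-33 plus dopamine red, IL-33 blue, PBS grey) and lines at the mean over hashtags. *Fth1* peaks in cluster 3 at 4407 CPM, *Txn1* in cluster 5 at 391 CPM, and *Ftl1* is nearly level.

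Genes that followed the members over the 47 sums of a hashtag and cluster were sought among 2503 genes with a mean of at least 50 CPM, by Pearson's r of log2(CPM + 10). The sums share libraries and depth, and the r values are a description. *Fth1* was followed by *Basp1* (0.94), *Tle3* (0.93) and *Il2rb* (0.93). *Txn1* was followed by *Vim* (0.90), *Lgals1* (0.89) and *Sh3bgrl3* (0.88), and *Txnrd1* by *Runx3* (0.83), *Epb41l2* (0.81) and *Sqstm1* (0.80), the last of these encoding the autophagy receptor p62. The evenly expressed members had weaker matches. They were *Glmp* (0.69), *Smc4* (0.66) and *Birc2* (0.63) for *Gclm*, *Arl4c* (0.55), *Cd82* (0.50) and *Bzw1* (0.49) for *Prdx1*, and *Bcas2* (0.53), *Selenos* (0.51) and *Socs1* (0.51) for *Ftl1*. The values of *Mt1*, *Mt2* and *Hmox1* rest on sparse counts and are not given. Among the members, *Txnrd1* and *Fth1* had an r of 0.56, *Prdx1* and *Fth1* 0.43, and the ferritin chains -0.18.

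The wider pathways held 132 further genes in 6 lists, on metallothionein, zinc and copper, on thioredoxin and peroxiredoxin, on glutathione and NADPH, on NRF2, on iron and haem, and on superoxide dismutase and catalase. In the bulk libraries 111 were tested and limma called 0, with 26 at an unadjusted p under 0.05, beside 24.1% of all tested genes. Of the 111, 72 lay below the median gene and 39 above it, with a median of -0.41. The thioredoxin and peroxiredoxin list had 19 of 24 genes below the median gene, with a median of -0.67, and the glutathione and NADPH list had 19 of 23 below, with a median of -0.61. The iron and haem list had 17 of 25 below, with a median of -0.44, and the NRF2 list had 12 of 17 above, with a median of 0.40. These medians are relative to the median gene, which was itself 0.49 higher in dopamine libraries. As fitted they were -0.17 for thioredoxin and peroxiredoxin, -0.12 for glutathione and NADPH, 0.05 for iron and haem, and 0.90 for NRF2. Of the 111 genes, 14 were higher and 16 lower in every dopamine library, beside 23.5% and 6.57% of all tested genes.

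By list, the gene with the smallest bulk p is named here, and none passed. *Prdx4*, a peroxiredoxin of the endoplasmic reticulum, averaged 44.0 ± 5.41 TPM in dopamine libraries and 95.6 ± 14.4 in vehicle libraries (adjusted p = 0.0921). *Gpx4*, which reduces lipid peroxides with glutathione, averaged 342 ± 48.2 TPM in dopamine libraries and 494 ± 21.4 in vehicle libraries (adjusted p = 0.130). *Cisd1*, an iron-sulfur protein of the outer mitochondrial membrane, averaged 27.7 ± 6.53 TPM in dopamine libraries and 100.5 ± 36.4 in vehicle libraries (adjusted p = 0.0832). The groups did not overlap in any of these, nor in *Sod1*, the cytosolic superoxide dismutase, at 1565 ± 90.05 TPM in dopamine libraries and 1978 ± 221 in vehicle libraries. Each gene was picked for the smallest p of its list, so separated groups follow largely from that choice. Of all tested genes, 6.57% were lower and 23.5% higher in every dopamine library. Higher in all dopamine libraries were *Mafk*, a small MAF partner of NRF2, at 82.6 ± 16.3 TPM against 13.4 ± 13.6 in vehicle libraries (adjusted p = 0.0832), and *Slc30a7*, a zinc transporter of the Golgi, at 29.5 ± 16.9 TPM against 6.24 ± 5.76 (adjusted p = 0.121). Values are means ± SD of 3 libraries.

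Genes of cell isolation stress and of glucocorticoid response were mostly above the median gene in bulk, and limma called 0 of them. Of 19 immediate early and dissociation genes, 18 lay above the median gene, with a median of 0.91, and 13 were higher in all dopamine libraries than in all vehicle libraries, as were 23.5% of all tested genes. *Fosb* averaged 196 ± 41.8 TPM in dopamine libraries and 37.8 ± 18.8 in vehicle libraries (adjusted p = 0.0703). Of 8 glucocorticoid response genes, 7 lay above the median gene, among them *Dusp1* at 2204 ± 368 TPM in dopamine libraries and 957 ± 396 in vehicle libraries (adjusted p = 0.0832). Their part in the values of *Mt1*, *Mt2* and the other members was not tested.

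In the single cells 112 of the 132 genes were tested in each comparison and edgeR called 0 in both. For IL-33 plus dopamine over IL-33, 6 of the 112 had an unadjusted p under 0.05, beside 9.47% of all tested genes. DESeq2 called 0 of them and the median change was -0.02. The smallest p belonged to *Gpx7*, a glutathione peroxidase relative of the endoplasmic reticulum, at 7.0 ± 0.706 CPM in IL-33 plus dopamine hashtags and 12.5 ± 1.38 CPM in IL-33 hashtags (SD, n = 3 each). It was lower in every IL-33 plus dopamine hashtag than in every IL-33 hashtag, as were 6.93% of all tested genes. Its edgeR adjusted p was 0.169. In PBS hashtags *Gpx7* stood at 7.16 and 5.06 CPM, with an edgeR adjusted p of 0.0807 for IL-33 over PBS. Every IL-33 hashtag was above both, as in 20.9% of all tested genes. Both comparisons use the same IL-33 hashtags, so opposite changes in a gene named here are not independent. *Slc39a8*, a zinc importer of the plasma membrane, ran the other way, at 3.74 ± 0.398 CPM in IL-33 plus dopamine hashtags and 2.30 ± 0.409 CPM in IL-33 hashtags (adjusted p = 0.428), with 7.16 and 3.87 CPM in PBS hashtags (adjusted p = 0.226 for IL-33 over PBS). *Sesn1*, which limits mTORC1 and oxidative stress, stood at 39.8 ± 1.40 CPM in IL-33 plus dopamine hashtags and 33.1 ± 0.572 CPM in IL-33 hashtags (adjusted p = 0.410). *Cat*, encoding catalase, stood at 24.7 ± 0.915 CPM in IL-33 plus dopamine hashtags and 28.7 ± 2.31 CPM in IL-33 hashtags (adjusted p = 0.528). The smallest adjusted p of the NRF2 and iron lists were those of *Esd* (0.461) and *Cisd3* (0.545), and of the stress and glucocorticoid lists those of *Jund* (0.429) and *Zbtb16* (0.425).

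For IL-33 over PBS, 14 of the 112 genes had an unadjusted p under 0.05, beside 13.4% of all tested genes, and the median change was 0.08. DESeq2 called 3, *Sesn3* higher and *Maff* and *Prdx6* lower, beside 1.13% of all tested genes. *Maff*, another small MAF protein, stood at 55.6 ± 2.15 CPM in IL-33 hashtags and at 108 and 71.2 CPM in PBS hashtags (edgeR adjusted p = 0.0541). *Sesn3* stood at 71.0 ± 6.70 CPM in IL-33 hashtags and at 47.9 and 47.3 CPM in PBS hashtags (adjusted p = 0.0677). *Blvra*, the biliverdin reductase that acts after haem oxygenase, stood at 16.8 ± 3.00 CPM in IL-33 hashtags and at 10.0 and 11.02 CPM in PBS hashtags (adjusted p = 0.242). *Cat* stood at 28.7 ± 2.31 CPM in IL-33 hashtags and at 23.6 and 20.8 CPM in PBS hashtags (adjusted p = 0.337). Of the 19 immediate early and dissociation genes, edgeR called 4 and all 4 fell with IL-33, beside 0.352% of all tested genes called lower. *Junb* fell to 3745 ± 201 CPM in IL-33 hashtags, against 5224 and 4507 CPM in PBS hashtags (adjusted p = 0.00855), and *Atf3*, *Fosb* and *Jund* had adjusted p of 0.0119, 0.0168 and 0.0343. *Klf9*, a glucocorticoid target, had an adjusted p of 0.182. With all 8 hashtags in 1 fit edgeR called 0 genes of all kinds for this comparison, with 1264 at an unadjusted p under 0.05.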

How the data were processed

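Per the submitters' processing notes, the authors used cutadapt 2.10, STAR 2.7.5c, RSEM 1.3.3, Cell Ranger 6.1.1 and Seurat 4.0.2 with mm10; settings are not given in the sources used here. The bulk values are TPM as deposited. The single-cell values are deposited UMI counts of cells the authors kept, with their hashtag, treatment, cluster and percent of mitochondrial UMIs (at most 7.50%). Doublet treatment is not given, and no doublet caller was run.

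Bulk genes with TPM of at least 1 in 3 of 6 libraries were tested with limma 3.58.1 (trend) on log2(TPM + 1). This scale understates changes of low genes. UMI counts were summed per hashtag, and per hashtag and cluster with at least 20 cells, and tested with edgeR 4.0.16 (TMM, filterByExpr, quasi-likelihood). DESeq2 1.42.0 was an alternative, in R 4.3.3. Benjamini-Hochberg adjustment covered all tested genes, and genes with an adjusted p under 0.05 passed. Fold changes are dopamine over its control, or IL-33 over PBS. The fits were tested on simulated data. The labels speak of biological replicates for the bulk libraries only.

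The members and lists were chosen with earlier results of these data known. All 9 members are named. Of each list, up to 4 called genes are named, or else the one with the smallest p, and the 3 genes most like a member (not for *Mt1*, *Mt2* and *Hmox1*, whose counts are sparse).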

Additional observations from a re-analysis of the deposited data

How the results depend on the processing

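The count of genes called in bulk (4) was 2 with a pseudocount of 5, 0 with no filter, 2 with a mean TPM of at least 5, 21 with quantile normalisation and 2800 with array weights, and 0 to 1536 with 1 library left out (0 without vehicle library 2, 1536 without vehicle library 1). A replicate block gave 15; equally numbered libraries did not deviate together (correlations 0.0186, -0.0710 and -0.00177), so the numbers do not pair them. For dopamine in single cells the count (3) was 26 with DESeq2, 9 between the 10th and 90th percentile of UMIs, and 1 to 16 with a hashtag left out. For IL-33 against PBS the count (74) was 119 with DESeq2, 322 with no filter, 0 with all hashtags in 1 fit, 34 between the percentiles, and 5 to 124 with a hashtag left out. With array weights the limma adjusted p was 0.0377 for *Mt1*, 0.00939 for *Mt2*, 0.0151 for *Txn1* and 0.0344 for *Txnrd1*, beside 2800 of all 11222 tested genes that passed. Without vehicle library 1 it was 0.0365 for *Txnrd1*, beside 1536 of all 10733. *Mt2* and *Txn1* also passed without vehicle library 1, and no member passed in the other bulk alternatives. Removal of the cells rich in *Mt1* was chosen after seeing the data.

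Apart from *Ftl1* in bulk, the values that changed sign were near 0 in the main setting or of sparse genes. Relative *Ftl1* (-0.61) and relative *Fth1* (-0.02), both abundant in bulk, became 0.064 and 0.66 with quantile normalisation. In bulk, relative *Hmox1* was 0.0062 (pseudocount 0.1), 0.22 (no filter), 0.66 (array weights) and -0.40 to 0.32 with a library left out. Relative *Fth1* was 0.18 (pseudocount 5), 0.21 (no filter), 0.66 (quantile) and -0.25 to 0.12 with a library left out, and *Ftl1* was 0.064 (quantile). For dopamine in single cells *Mt1* was -0.46 between the percentiles, -0.71 without its 13 richest cells and -0.38 to 0.67 with a hashtag left out. *Fth1* was -0.042 with the cluster mix held fixed. With a hashtag left out, *Txnrd1* ran from -0.059 to 0.18, *Prdx1* from -0.048 to 0.037, *Fth1* from -0.0056 to 0.11, and the log2 *Fth1* to *Ftl1* ratio from -0.064 to 0.017. For IL-33 against PBS *Mt1* ran from -0.012 to 1.48 and *Txnrd1* from -0.12 to 0.054. The causes were not tested. The fixed cluster mix was not run for gene counts or for members that could not be fitted in every cluster. Depth limits *Mt1*, *Mt2* and *Hmox1* in single cells.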
